A study of Mus musculus with 6 samples.

Results

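The TGF-beta genes described here are 9 genes of 1 signalling chain: the ligands Tgfb1, Tgfb2 and Tgfb3, the latency protein Ltbp1, the receptors Tgfbr1 and Tgfbr2, the signal carriers Smad3 and Smad7, and the target gene Tgfbi. They were found as all probe sets whose only annotated symbol is one of these genes, which gave 25 of 45037 non-control probe sets on the array. A probe set is a group of short probes that read 1 transcript region. Of the 25, 22 passed the filter on dim signal and were tested, with at least 1 for each of the 9 genes. The 3 left out were the third probe sets of Tgfbr1, Tgfbr2 and Ltbp1.

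Heart RNA was hybridised to Affymetrix arrays, 2 arrays in each of 3 groups, all from mice on the B6 background at an age of 8 months. The treated group held apoE-deficient mice that received rosiglitazone, an antidiabetic activator of the nuclear receptor PPAR gamma. The dose was 30 mg/kg daily, begun at 6 months of age and kept up for 2 months, and the labels call these hearts failing. The untreated apoE-deficient group had the same genotype and no drug, and the B6 group was untreated wild type. All mice ate chow with 7% fat and 0.15% cholesterol. ApoE is a lipoprotein component through which the liver clears lipid from blood. No group was failing without the drug, so rosiglitazone and the failing state cannot be told apart. Whether both arrays of a group are separate animals is not stated, and the p-values therefore reflect array-to-array spread, possibly technical.

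TGF-beta ligands are secreted in a latent form, held in the matrix by latent binding proteins such as the product of Ltbp1, and released by integrins and proteases. The freed ligand binds the type II receptor, made from Tgfbr2, which recruits and phosphorylates the type I receptor, made from Tgfbr1. That receptor phosphorylates Smad2 and Smad3, which enter the nucleus with Smad4, while Smad7 is induced by the signal and blocks the receptor. In the heart the pathway is best known for turning fibroblasts into matrix-producing myofibroblasts.

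Signals below are quantile-normalized intensities, with no fixed unit, and differences are on a log2(value + 11.1) scale, which understates changes of dim probe sets. Each difference is given ± SE from limma fitted over all 6 arrays, with n = 2 arrays per group, and passing means an adjusted p (Benjamini-Hochberg, over 27022 probe sets) under 0.05. The number of arrays limits the precision. Brightness differs between probe sets for reasons of probe design, so levels are compared between groups and not between genes. The 2%-trimmed mean of the deposited signals was 263 to 341 on treated arrays, 125.6 to 130.4 on untreated apoE-deficient arrays and 148.9 to 175.5 on B6 arrays, a spread that normalization removed. Apoe was at a log2 level of 6.20 and 6.25 on treated arrays and 5.24 and 6.29 on untreated apoE-deficient arrays, against 11.91 and 11.86 on B6 arrays, matching the labelled genotypes. Ventricular muscle markers were bright on all arrays, with a summed signal over 10 genes of 144400 to 149700 on treated, 149100 to 151500 on untreated apoE-deficient and 157100 to 157200 on B6 arrays. That near-equality rests on the scaling: the treated over untreated ratio of the sums was 0.978 here, with 3 of 10 markers higher and 4 lower. It was 0.565 with trimmed-mean and 0.593 with median scaling, each with 10 of 10 lower, and 0.640 with spike-in scaling, with 8 lower.

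In treated against untreated apoE-deficient hearts, the main probe set of the type II receptor Tgfbr2 and 2 of 4 probe sets of the matrix target Tgfbi rose, while the ligands, Ltbp1, Tgfbr1, Smad3 and Smad7 had no probe set that passed. The main Tgfbr2 probe set was higher by 0.70 ± 0.07 on the log2 scale, a fold of 1.63, and 2 of 4 Tgfbi probe sets were higher by 0.45 ± 0.08 and 0.87 ± 0.11. Against B6 hearts, the treated hearts were higher in the main probe sets of Tgfbr2 and Tgfbr1 and in 3 of 4 Tgfbi probe sets. Between untreated apoE-deficient and B6 hearts none of the 22 probe sets passed. In each comparison 0 of the 22 passed as lower.

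**Figure D1:**
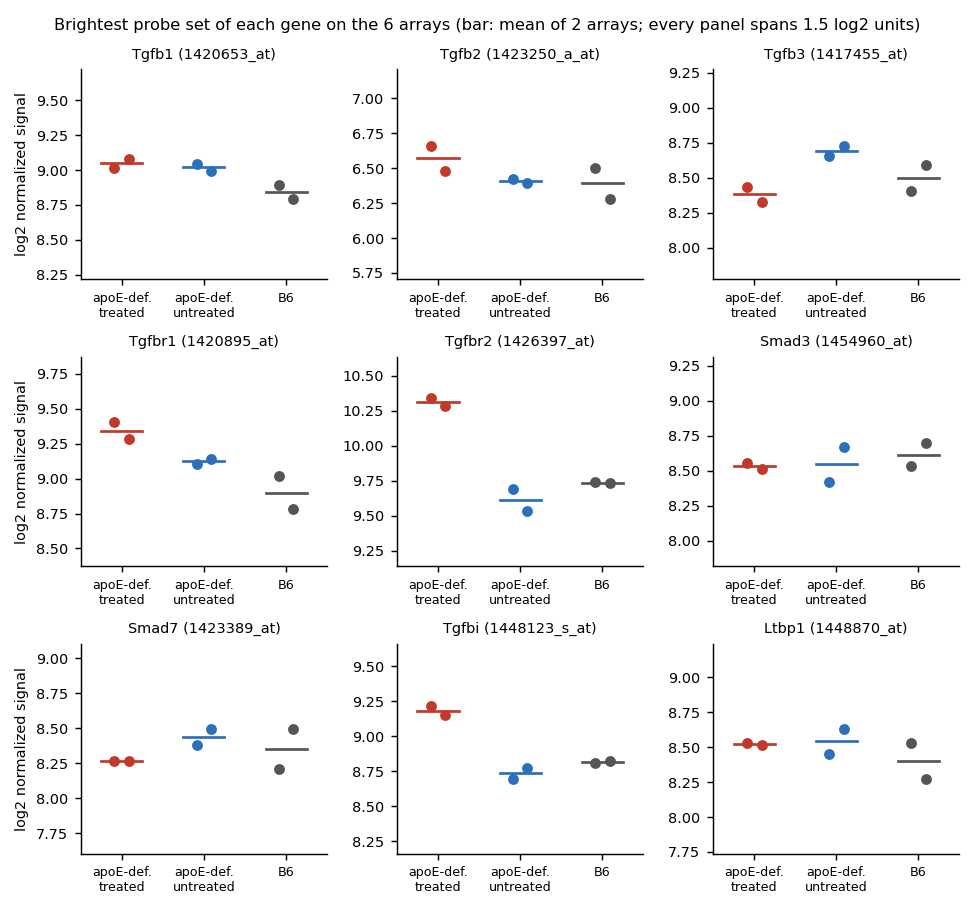
Log2 normalized signal (vertical axis) of the probe set with the highest mean for each of the 9 genes, with 1 point per array, a bar at the mean of 2 arrays, and treated apoE-deficient, untreated apoE-deficient and B6 hearts from left to right. Tgfbr2 and Tgfbi stand higher on both treated arrays than on all other arrays, Tgfbr1 steps down from treated to B6 hearts, and the points of Smad3 and Ltbp1 overlap between groups.

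Tgfbr2, the receptor that binds the ligand first, had signals of 1288 and 1235 on the treated arrays. The same probe set (1426397_at) stood at 815 and 731 on untreated apoE-deficient arrays, and at 843 and 841 on the B6 arrays. Both treated arrays were thus above all 4 others, and the difference was 0.70 ± 0.07 from untreated apoE-deficient hearts (limma adjusted p = 0.000204) and 0.58 ± 0.07 from B6 hearts (limma adjusted p = 0.000738). Untreated apoE-deficient hearts differed from B6 hearts by -0.12 ± 0.07 (limma adjusted p = 0.337), which did not pass. A second Tgfbr2 probe set (1425444_a_at) was dimmer, with 90.9 and 78.3 on treated, 86.5 and 84.7 on untreated apoE-deficient and 60.2 and 67.5 on B6 arrays. It did not follow the first in the drug comparison, where its difference was -0.02 ± 0.20 with a 95% interval of -0.48 to 0.44. That interval excludes the value of the main probe set. Against B6 it gave 0.35 ± 0.20 in treated and 0.37 ± 0.20 in untreated apoE-deficient hearts, and neither passed. With spike-in scaling, which moved the median of all probe sets to 0.28 in treated against B6 hearts, it passed there (0.71, adjusted p = 0.0277).

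Tgfbi encodes a secreted matrix protein named for its induction by TGF-beta. Its probe set with the highest mean (1448123_s_at) read 583 and 557 on treated arrays, 404 and 427 on untreated apoE-deficient arrays, and 437 and 441 on B6 arrays. The treated arrays did not overlap either group, with differences of 0.45 ± 0.08 from untreated apoE-deficient hearts (limma adjusted p = 0.00470) and 0.37 ± 0.08 from B6 hearts (limma adjusted p = 0.0149). Probe set 1456250_x_at showed a wider gap, with 582 and 550.1 on treated arrays, 333 and 278 on untreated apoE-deficient arrays, and 338 and 354 on B6 arrays. Its differences were 0.87 ± 0.11 from untreated apoE-deficient hearts (limma adjusted p = 0.000587) and 0.69 ± 0.11 from B6 hearts (limma adjusted p = 0.002475). A further probe set, 1437463_x_at, passed against B6 hearts (0.42 ± 0.12, limma adjusted p = 0.0438) but not against untreated apoE-deficient hearts (0.38 ± 0.12, limma adjusted p = 0.0535), where it did pass without untreated apoE-deficient replicate 2 (0.49) and with trimmed-mean (0.48), median (0.55) or spike-in scaling (0.65). The remaining one, 1415871_at, stood apart from these, with 352 and 417 on treated, 383 and 391.7 on untreated apoE-deficient and 323 and 364 on B6 arrays. Its treated and untreated arrays overlapped, and the difference of -0.02 ± 0.11 had a 95% interval of -0.26 to 0.23, below the values of the 2 probe sets that passed. Against B6 hearts it gave 0.15 ± 0.11 in treated hearts, which passed with spike-in scaling alone among the scaled settings (0.51). That scaling also raised the median of all probe sets in this comparison. The suffixes mark Affymetrix designs: s and x probe sets share probes with other transcripts or close copies of the sequence. The plain Tgfbi probe set did not move between treated and untreated hearts. For Tgfbr2 the plain probe set rose, and the one with the suffix a, neither an s nor an x design, did not. Whether shared probes account for the differences between the Tgfbi probe sets was not tested. Tgfbi is therefore described per probe set and not as 1 value.

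The bases just upstream of the annotated starts of both genes with probe sets that rose, Tgfbr2 and Tgfbi, are shown beside those of Tgfb1, whose level in treated hearts did not differ from untreated ones by the test. They come from RefSeq on build GRCm38.p6, cover the 250 bases before the start, and read 5′ to 3′ on the gene's strand. Capitals mark the Smad box CAGAC or its reverse complement GTCTG, searched on both strands.
Tgfbr2 chr9:116175364-116175613, minus strand: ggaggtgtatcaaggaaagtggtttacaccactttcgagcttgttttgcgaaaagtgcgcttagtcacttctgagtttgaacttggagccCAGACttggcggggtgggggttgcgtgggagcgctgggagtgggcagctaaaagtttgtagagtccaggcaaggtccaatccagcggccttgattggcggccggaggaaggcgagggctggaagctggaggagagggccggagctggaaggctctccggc
Tgfbi chr13:56609336-56609585, plus strand: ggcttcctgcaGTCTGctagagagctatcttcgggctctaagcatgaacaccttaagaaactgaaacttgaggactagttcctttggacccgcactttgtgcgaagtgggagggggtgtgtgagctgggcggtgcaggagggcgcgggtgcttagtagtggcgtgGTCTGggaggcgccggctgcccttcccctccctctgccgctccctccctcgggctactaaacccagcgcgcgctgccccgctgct
Tgfb1 chr7:25686752-25687001, plus strand: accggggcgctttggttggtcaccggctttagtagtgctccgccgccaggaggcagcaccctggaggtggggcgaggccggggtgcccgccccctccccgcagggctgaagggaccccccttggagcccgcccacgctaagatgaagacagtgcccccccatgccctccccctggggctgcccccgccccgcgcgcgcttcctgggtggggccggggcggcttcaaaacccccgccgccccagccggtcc
The Tgfbr2 window held 1 match, the Tgfbi window 2 and the Tgfb1 window 0. The other windows held 2 matches for Tgfb2, 1 and 2 for Ltbp1, 0 and 1 for Tgfbr1, and 0 for Smad3. Tgfb2 and Ltbp1 had no probe set that passed in the main fit, so the box was not limited to genes that rose. Promoter windows were found for 7 of the 9 genes, 9 windows in all, and 6 of these held the box, against 42.2% of 32851 windows of the same length. A box this short occurs often, and a match is a description of the letters and not a bound site.

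Among the ligands, Tgfb1, the main form in inflamed and injured tissue, had near-equal signals in both apoE-deficient groups, with 507 and 529 on treated and 517 and 498 on untreated arrays, against 465 and 433 on B6 arrays. All 4 apoE-deficient arrays were above both B6 arrays. The differences from B6 did not pass, at 0.20 ± 0.08 in treated (limma adjusted p = 0.145) and 0.17 ± 0.08 in untreated hearts (limma adjusted p = 0.247). With spike-in scaling, which also raised the median of all probe sets in treated against B6 hearts, the treated difference passed (0.54, limma adjusted p = 0.0015). Treated and untreated apoE-deficient hearts differed by 0.03 ± 0.08, with a 95% interval of -0.16 to 0.21. A dim second Tgfb1 probe set (1445360_at) read 12.1 and 43.4 on treated, 58.7 and 73.9 on untreated apoE-deficient and 39.97 and 35.4 on B6 arrays. Its treated minus untreated difference of -1.12 ± 0.41 did not pass (limma adjusted p = 0.0914), but passed without treated replicate 2 (-1.73).

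Tgfb2, the form most studied in heart valve development, was dim on all 4 of its probe sets. The one with the highest mean (1423250_a_at) read 89.9 and 78.3 on treated arrays, 74.5 and 73.0 on untreated apoE-deficient arrays, and 79.6 and 66.7 on B6 arrays, and its differences were within 0.18 of 0 in all 3 comparisons. The widest gap was that of 1450922_a_at, with 79.7 and 70.6 on treated arrays, 42.1 and 14.6 on untreated apoE-deficient arrays, and 58.4 and 32.5 on B6 arrays. Both treated arrays were above the other 4, yet the untreated arrays were far from each other, and 1.22 ± 0.40 did not pass (limma adjusted p = 0.0613). It passed without untreated apoE-deficient replicate 1 (1.75), with the replicate number as a block (1.22), and with trimmed-mean (1.22), median (1.28) or spike-in scaling (1.38). The other 2 Tgfb2 probe sets gave 0.21 ± 0.29 and 0.59 ± 0.55 in that comparison.

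Tgfb3, a ligand that shares the Tgfb1 receptors, read 335 and 311 on treated arrays and 393 and 413 on untreated apoE-deficient arrays, without overlap. The B6 arrays lay across the treated ones, at 328 and 375. The treated minus untreated difference was -0.31 ± 0.10 and did not pass (limma adjusted p = 0.0645), but it passed when only probe sets above the 60th percentile were tested (-0.31, adjusted p = 0.0475). It also passed when the probe sets of each gene were averaged first (-0.31, limma adjusted p = 0.0482 over 13236 genes). Tgfb3 has only 1 probe set, so both settings left its values as they were and changed only the features tested with it. The differences involving B6 hearts were -0.12 ± 0.10 for treated and 0.19 ± 0.10 for untreated apoE-deficient hearts, and neither passed.

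Over the 6 arrays and 13236 genes, the profiles most like that of Tgfb1 were those of Unc93b1, P2rx4 and Zc3h12d (Pearson r from 0.99002 to 0.99087). For Tgfb2 they were Ctdspl, Ybx3 and Mrfap1 (r from 0.965 to 0.974), and for Tgfb3 Vezt, Mrpl2 and Eipr1 (r from 0.987 to 0.992). The 3 ligands shared none of these nearest genes. With 6 arrays and so many genes, both r values of this size and the lack of shared genes are a description alone.

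Ltbp1 tethers latent ligand to the matrix, and its groups overlapped: its main probe set (1448870_at) read 358 and 355 on treated, 339 and 386 on untreated apoE-deficient and 358 and 297 on B6 arrays. The treated minus untreated difference was -0.02 ± 0.12, with a 95% interval of -0.28 to 0.24. Its second tested probe set (1447547_at) was dim and scattered, with 2.79 and 46.7 on the untreated apoE-deficient arrays alone, and gave no call. In treated against B6 hearts the main probe set gave 0.12 ± 0.12, which passed with spike-in scaling (0.48). That scaling also raised the median of all probe sets there.

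The main probe set of Tgfbr1 (1420895_at), the type I receptor kinase, was ordered from treated through untreated apoE-deficient to B6 hearts, with no overlap between neighbours. That probe set read 665 and 611 on treated arrays, 540.2 and 554 on untreated apoE-deficient arrays, and 509 and 428 on B6 arrays. The ends of that order differed by 0.44 ± 0.10 (limma adjusted p = 0.0151). Neither step passed, at 0.22 ± 0.10 for treated minus untreated (limma adjusted p = 0.159) and 0.22 ± 0.10 for untreated apoE-deficient minus B6 (limma adjusted p = 0.212). The call against B6 was lost without treated replicate 1 (0.38) and without B6 replicate 2 (0.32), and with the mean of both tested Tgfbr1 probe sets (0.29). The step from untreated hearts passed with spike-in scaling (0.44), which moved the median of all probe sets to 0.18 there. The second tested probe set (1420893_a_at) was dim. It read 22.9 and 33.9 on treated, 22.4 and 33.3 on untreated apoE-deficient and 26.2 and 22.8 on B6 arrays. Its groups overlapped in each comparison, and none passed. The differences were 0.02 ± 0.37 for treated minus untreated, 0.12 ± 0.37 for untreated apoE-deficient minus B6 and 0.14 ± 0.37 for treated minus B6.

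Smad3, which carries the signal from the receptor to the nucleus, showed no difference that passed. Its main probe set (1454960_at) read 366 and 355 on treated, 332 and 396 on untreated apoE-deficient and 360.1 and 404 on B6 arrays, with all groups overlapping. The treated minus untreated difference of -0.01 ± 0.11 had a 95% interval of -0.26 to 0.24. The dimmer Smad3 probe sets gave -0.35 ± 0.31 and 0.23 ± 0.50. Smad7, the inhibitory member that the pathway itself induces, read 297 and 297 on treated, 323 and 350.1 on untreated apoE-deficient and 284 and 350 on B6 arrays (1423389_at). Both treated arrays were below both untreated ones, and the difference of -0.17 ± 0.12 did not pass (limma adjusted p = 0.354). A second Smad7 probe set gave -0.14 ± 0.30.

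**Figure D2:**
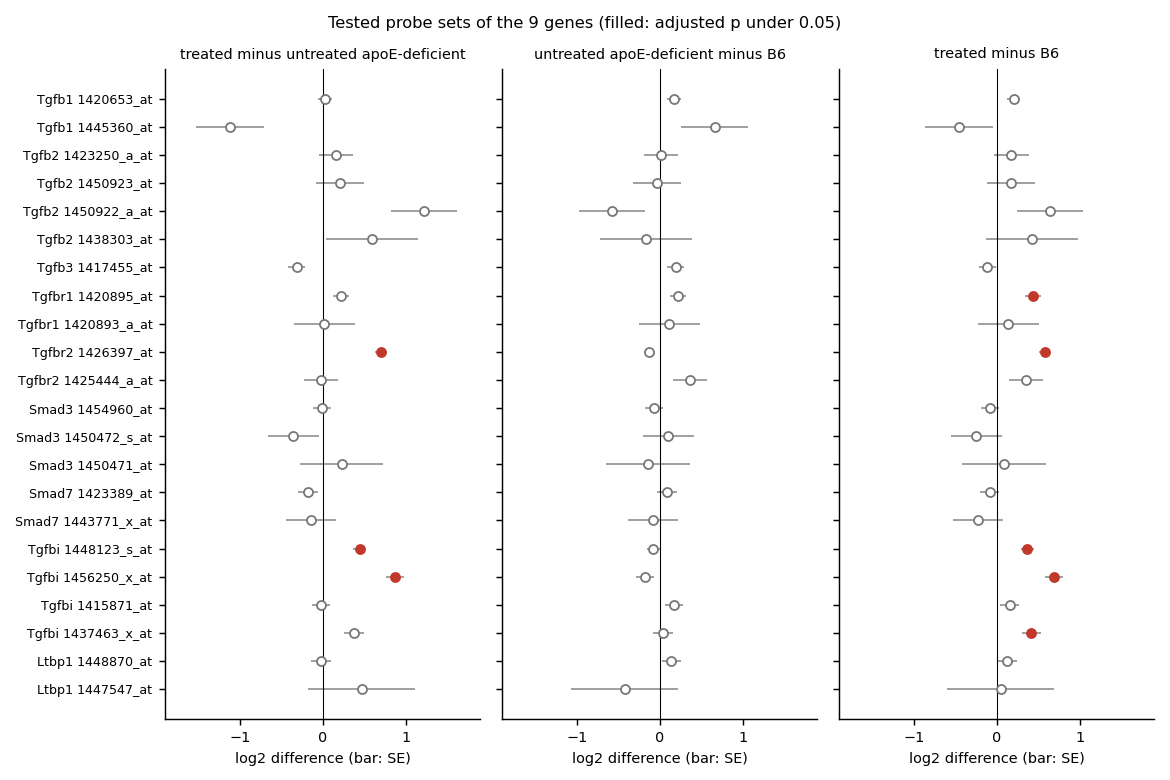
Log2 difference (horizontal axis, bars ± SE from limma) of the 22 tested probe sets in the 3 comparisons, with filled points for an adjusted p under 0.05. Filled points are seen for Tgfbr2 (0.70) and 2 Tgfbi probe sets on the left, none in the middle, and Tgfbr1, Tgfbr2 and 3 Tgfbi probe sets on the right, while probe sets of the same gene can lie far apart.

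Counted over all members, 3 of 22 probe sets (13.6%) were higher in treated than in untreated apoE-deficient hearts, against 10.0% of all tested probe sets, and 0 were lower, against 9.81% (19.8% of all passed in either direction). The share higher is near the background. Against B6 hearts 5 of 22 (22.7%) were higher in treated hearts, against 7.46% of all, and 0 were lower, against 7.58% (15.0% in either direction). Of these 5 probe sets 3 belong to Tgfbi, so they are not separate genes. By the probe set with the highest mean, 2 of 9 genes were higher than in untreated and 3 of 9 higher than in B6 hearts, against 11.4% and 8.78% of 13236 genes. Between untreated apoE-deficient and B6 hearts, limma called 0 of 22 in each direction, against 3.17% higher and 3.90% lower over all (7.06% in either direction), and 1, that of Tgfbr1, had an unadjusted p under 0.05. Groups did not overlap for 7 higher and 3 lower of 22 in the drug comparison (28.6% and 31.4% of all), 8 and 2 in treated against B6 hearts (26.4% and 31.1%), and 6 and 3 in untreated apoE-deficient against B6 hearts (24.3% and 25.9%). The median log2 differences of the 22 were 0.10, 0.16 and 0.03 in the same order of comparisons, against -0.02, -0.02 and -0.01 over all tested probe sets. The 3 comparisons share arrays: the treated arrays enter the first and the second, so their calls are not separate evidence.

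The calls differed in how firmly they stood. Those of Tgfbr2 and 1456250_x_at of Tgfbi were kept in both treated comparisons when any 1 array was left out and under 4 other scalings. The Tgfbi call of 1448123_s_at against untreated hearts was kept there too, but against B6 hearts it was lost when any 1 treated or B6 array was left out (0.34 to 0.40), as was that of 1437463_x_at (0.37 to 0.46). Without the intensity trend in the variance model, all 5 calls against B6 hearts were lost and 2 of 3 remained against untreated hearts, those of Tgfbr2 and 1456250_x_at of Tgfbi.

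**Figure D3:**
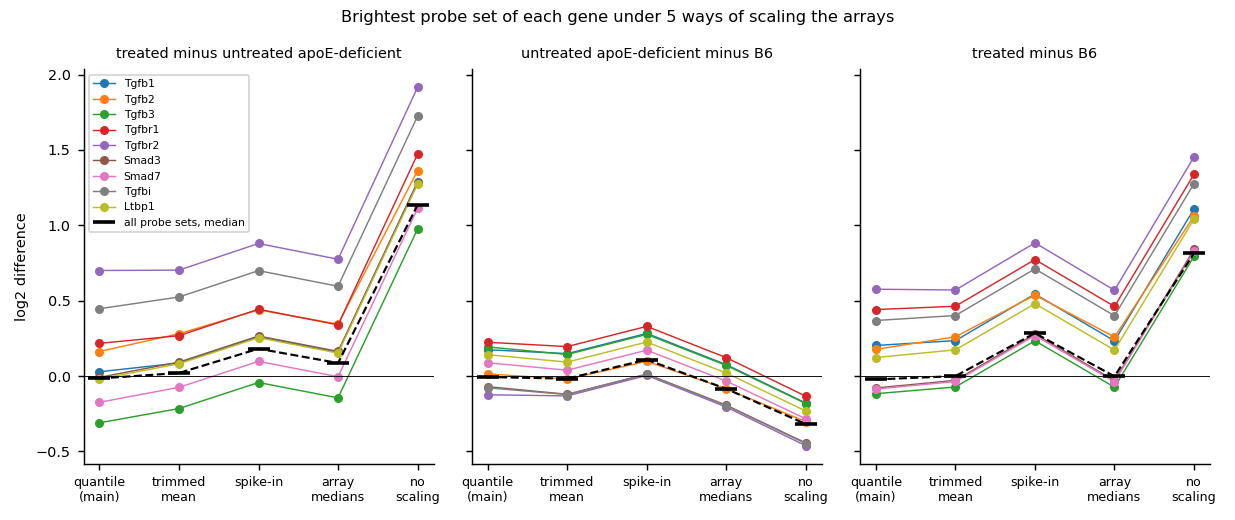
Log2 difference (vertical axis) of the probe set with the highest mean of each of the 9 genes under 5 ways of scaling the arrays (horizontal axis), with the median of all tested probe sets as a dashed line. Tgfbr2 and Tgfbi lie above that median in both treated comparisons under each of the 5, at 0.70 to 0.88 and 0.45 to 0.70 against untreated hearts with scaled arrays, while unscaled values lift all genes with the brighter treated arrays.

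Genes around these 9 were taken from lists of the wider pathway, drawn up with earlier results of these data known. Of 120 listed genes beyond the 9, 105 were tested, each through the tested probe set of highest mean. In treated against untreated apoE-deficient hearts 31 rose and 7 fell, against 11.4% higher and 12.3% lower over all genes. Of the 33 target genes tested, 18 rose (54.5%), 3 fell and 12 did not pass, with a median log2 difference of 0.51 against -0.03 over all genes. Postn, a matrix protein of activated fibroblasts, had log2 levels of 10.95 and 10.83 on treated arrays and 9.74 and 9.63 on untreated ones, and rose by 1.21 ± 0.07. Fibronectin, Fn1, was at 10.42 and 10.49 on treated arrays and 9.48 and 9.40 on untreated ones (1.02 ± 0.07). These arrays did not overlap. Acta2, the smooth muscle actin that marks myofibroblasts and vessel walls, rose by 0.84 ± 0.07, and the collagen Col3a1 by 0.56 ± 0.04. The targets that fell were Pdgfb, a platelet-derived growth factor chain (-0.50 ± 0.09), Id3, an inhibitor of differentiation (-0.32 ± 0.07), and Cdkn1a, a cell cycle inhibitor (-0.33 ± 0.08). The Pdgfb call was kept whichever array was left out. That of Id3 was lost without treated replicate 1 (-0.30) or untreated apoE-deficient replicate 1 (-0.29) and with spike-in scaling (-0.14). That of Cdkn1a was lost without any 1 of the 4 arrays compared (-0.37 to -0.29) and with trimmed-mean (-0.24), median (-0.17) or spike-in scaling (-0.07).

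Markers of several cell types moved with the target genes. Of 13 fibroblast markers 11 rose, and their summed signal was 50880 to 52250 on treated arrays, against 42270 to 42410 on untreated ones. The ratio of these sums was 1.22 here but 0.908 with array medians centred, 0.864 with trimmed-mean and 0.977 with spike-in scaling, and the markers that rose or fell were 7 and 2 of 13 with trimmed-mean, 8 and 2 with median and 10 and 2 with spike-in scaling. White adipocyte markers summed to 27850 to 28630 on treated arrays, against 8617 to 8773 on untreated ones, with 6 of 7 tested higher and Lep, Cfd and Plin1 without a tested probe set. Airway and lung markers summed to 14640 to 15460 on treated arrays and 107 to 108.5 on untreated ones, with Scgb1a1, the main secretory protein of airway club cells, higher by 7.55 ± 0.36. Atrial markers summed to 46000 to 46010 on treated arrays and 19450 to 19590 on untreated ones, with 7 of 8 higher and 1 lower. Brown adipocyte markers summed to 37420 to 38280 on treated arrays and 27940 to 28320 on untreated ones, with 5 of 7 higher and 0 lower. That ratio of 1.35 turned to 0.843 with trimmed-mean, 0.886 with median and 0.954 with spike-in scaling, each with 5 higher and 2 lower. Lymphocyte markers summed to 1675 to 1976 on treated arrays and 354 to 389.7 on untreated ones. Macrophage markers, by contrast, were at 13640 to 13680 on treated and 13610 to 13740 on untreated arrays. Of the smooth muscle and pericyte list 5 of 9 rose and 3 fell, and of 8 endothelial markers 4 rose and 1 fell. Whether attached fat, lung or atrial tissue carries part of the Tgfbr2, Tgfbi or target signals was not tested, and in bulk tissue fewer cells of a type and less RNA per cell cannot be told apart. Without the 6 target genes that a cell type list also holds, 12 of 27 rose and 3 fell.

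Upstream of the receptors, 7 of 20 tested genes of latency and activation (35%) rose in treated against untreated hearts and 1 fell. Over all genes 11.4% were higher and 12.3% lower. The list had 7 higher and 3 lower with trimmed-mean, 8 and 2 with median and 8 and 1 with spike-in scaling. The genes that rose with the smallest p were Bgn, a proteoglycan that binds TGF-beta (0.80 ± 0.04), and the plasminogen activator Plat (0.98 ± 0.08). Next were the latent binding protein Ltbp3 (0.82 ± 0.10), and Itgav, the alpha V integrin chain of latent TGF-beta activators (0.52 ± 0.06). The Itgav call was lost without the intensity trend. Plat was at 9.57 and 9.59 on treated arrays and 8.58 and 8.60 on untreated ones. Ltbp3 rose while its relative Ltbp1 did not pass. The gene that fell was Thbs1, thrombospondin, an activator of latent ligand, at -0.87 ± 0.19, which was 6.61 and 6.36 on treated, 7.27 and 7.44 on untreated apoE-deficient and 6.17 and 6.26 on B6 arrays. That call was lost without treated replicate 2 (-0.74) or untreated apoE-deficient replicate 2 (-0.79) and with spike-in scaling (-0.58).

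The lists below stand against 11.4% higher and 12.3% lower over all genes. Their shares higher were 8.33% for other receptors and for other ligands, 12.5% for antagonists, 11.1% for Smad regulators and 40% for other Smads. All but the last were near the share over all genes. Of 12 other receptors and coreceptors 1 rose and 0 fell, this being Acvr1, a type I receptor of bone morphogenetic proteins (0.63 ± 0.09). Of 12 other ligands of the family 1 rose, Bmp10, a peptide of atrial muscle (1.37 ± 0.28). Its call was lost without treated replicate 2 (1.30) and without the intensity trend. Among 8 ligand antagonists Fstl1, a follistatin-like secreted protein, was the 1 that rose (0.71 ± 0.06). Of 5 other Smads, Smad6, the inhibitory Smad of the bone morphogenetic branch, rose by 0.62 ± 0.08 and Smad1, its signal carrier, by 0.42 ± 0.10. The Smad1 call was lost without either treated array (0.37 and 0.48) or either untreated one (0.43 and 0.42), and without the intensity trend. The partners of Smad3 did not pass, with Smad2 at -0.14 ± 0.11 and Smad4 at 0.08 ± 0.07. Of 18 Smad regulators 2 rose and 3 fell. The 2 were Pmepa1, an inhibitor that TGF-beta induces (0.54 ± 0.10), and Fkbp1a, which binds the type I receptor (0.29 ± 0.05).

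The 3 that fell were the corepressor Ski (-0.46 ± 0.08), the deubiquitinase Usp15 (-0.44 ± 0.11) and the phosphatase Ppm1a (-0.23 ± 0.06). With trimmed-mean scaling the list had 1 higher and 4 lower, and with spike-in scaling 3 higher and 1 lower. All 5 calls were lost without the intensity trend, and that of Fkbp1a with trimmed-mean scaling too (0.14). The Usp15 call did not hold with treated replicate 2 (-0.36) or untreated apoE-deficient replicate 1 (-0.35) left out and with spike-in (-0.20) or median scaling (-0.30). Ppm1a lost its call when any 1 array other than treated replicate 2 was left out (-0.28 to -0.15) and with spike-in scaling (-0.16).

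**Figure D4:**
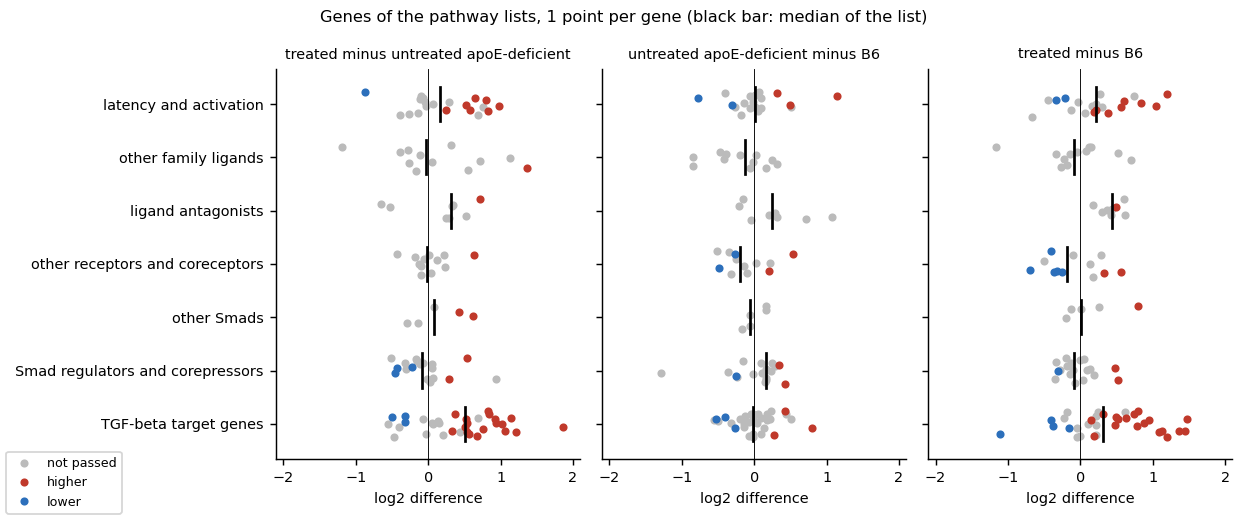
Log2 difference (horizontal axis) of each tested gene of 7 pathway lists, 1 point per gene with a black bar at the list's median, coloured by whether it passed as higher or lower. In the left panel 18 of 33 target genes passed as higher with a median of 0.51, while in the middle panel 3 were higher and 3 lower.

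Against B6 hearts the treated hearts had 18 of 33 target genes higher and 4 lower, with a median of 0.31 against -0.03 over all genes (8.78% higher and 9.87% lower). Cilp, a cartilage matrix protein also made by cardiac fibroblasts, was at 9.32 and 9.41 on treated, 8.68 and 8.70 on untreated apoE-deficient and 7.93 and 7.85 on B6 arrays. It was higher than in B6 hearts by 1.47 ± 0.09 in treated and 0.80 ± 0.09 in untreated apoE-deficient hearts (limma adjusted p = 0.00164). Postn was higher than in B6 hearts by 1.44 ± 0.07 in treated hearts, Smad6 by 0.79 ± 0.08 and Plat by 1.05 ± 0.08. Of other receptors and coreceptors, 2 were higher and 5 lower, but with spike-in scaling 5 were higher and 0 lower. The untreated apoE-deficient hearts had 9 of 105 pathway genes higher and 8 lower than B6 hearts, against 3.85% and 4.66% of all genes. Of the 33 target genes 3 were higher and 3 lower, the lower ones being the collagens Col3a1 (-0.41), Col5a1 (-0.53) and Col1a2 (-0.27). The Col5a1 call was lost without B6 replicate 2 (-0.49), and that of Col1a2 without either untreated apoE-deficient array (-0.28 and -0.25) or B6 replicate 2 (-0.18) and with trimmed-mean (-0.23) or spike-in scaling (-0.09).

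Cell type markers also moved in the comparisons with B6 hearts. In treated against B6 hearts, 7 of 7 white adipocyte markers were higher, with sums of 27850 to 28630 on treated and 9517 to 10290 on B6 arrays. Airway and lung markers summed to 14640 to 15460 on treated and 97.2 to 121 on B6 arrays, and atrial markers to 46000 to 46010 on treated and 33480 to 33560 on B6 arrays, with 6 of 8 higher and 1 lower. The atrial ratio of 1.37 was 1.21 with spike-in scaling. It was 0.972 with trimmed-mean and 0.97 with median scaling, each with 4 higher and 2 lower. Of 10 macrophage markers 7 were higher, with sums of 13640 to 13680 on treated and 10110 to 10320 on B6 arrays. Endothelial markers had 5 of 8 higher and 3 lower, and fibroblast markers 6 of 13 higher and 1 lower, but 3 and 3 with trimmed-mean scaling. In untreated apoE-deficient against B6 hearts, 5 of 13 fibroblast markers were lower and 1 higher, with sums of 42270 to 42410 on untreated apoE-deficient and 45330 to 45670 on B6 arrays. Col3a1 and Col1a2 are on that list too. The ratio of these sums was 0.931, and 1.10 with spike-in scaling. Atrial markers had 6 of 8 lower, with sums of 19450 to 19590 on untreated apoE-deficient and 33480 to 33560 on B6 arrays, and white adipocyte markers 4 of 7 lower. Macrophage markers had 6 of 10 higher and 1 lower, with sums of 13610 to 13740 on untreated apoE-deficient and 10110 to 10320 on B6 arrays. The part of these cell types in the pathway values was not tested.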

How the data were processed

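Hearts of 3 groups were measured on 6 arrays. Per the labels' protocols, RNA was extracted with a column kit and made into biotinylated cRNA. The authors deposited 1 linear intensity per probe set and array, and the submitters' processing notes name GCOS, but how it handled background and scaling is not stated there. Of 45101 probe sets 64 controls were left out. Signals were quantile-normalized, a pseudocount of 11.1 (their 25th percentile) was added, log2 was taken, and 27022 probe sets whose mean exceeded the 40th percentile (4.99) entered the tests. Differences were fitted with limma 3.58.1 in R 4.3.3 (lmFit, eBayes with an intensity trend, 3 residual and 5.97 prior degrees of freedom) over all 6 arrays, with Benjamini-Hochberg adjustment over all tested probe sets. The fit was tested on simulated data. Symbols come from the given array annotation, updated by gene number with a GRCm38.p6 gene table. The annotation pairs 34945 probe sets with 1 symbol, 932 with several and 9160 with none.

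The 9 genes, the pathway and marker lists, the normalization and the tests were chosen with earlier results of these data known. All probe sets of the 9 genes are described. Of each pathway list, the genes named are among the 4 with the smallest p that passed without overlap, or, where 5 or fewer passed, some or all of those. Smad2, Smad4 and the genes Thbs1, Pdgfb, Id3, Cdkn1a and Col1a2 that fell were named after their values were seen. Alternatives changed the scaling, pseudocount, filter, variance model, samples in the fit, replicate block and arrays left out.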

Additional observations from a re-analysis of the deposited data

How the results depend on the processing

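Values here were recomputed under other choices, and those for target and other pathway genes were added after seeing the data. Of the 22 probe sets of the 9 genes, 5 were higher in treated than untreated apoE-deficient hearts with trimmed-mean scaling and 5 with centred medians, 6 under spike-in scaling and 19 without scaling. Leaving out 1 array gave 3 to 4 higher and 0 to 1 lower, and the 60th percentile filter gave 1 lower. Against B6, 9 were higher with spike-in scaling, 17 without scaling, 0 without the intensity trend, and 2 to 5 with 1 array left out. Between untreated apoE-deficient and B6 hearts the count was 0 in all settings run.

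Of the 33 target genes, treated against untreated hearts gave 33 higher and 0 lower without scaling, 1 lower with spike-in scaling, 0 lower without the trend, and 1 to 3 lower and 15 to 18 higher with 1 array left out. Against B6 there were 30 higher and 0 lower without scaling, 7 and 0 without the trend, 1 lower with spike-in scaling, and 12 to 17 higher and 1 to 4 lower with 1 array left out. Untreated apoE-deficient against B6 gave 5 higher with spike-in scaling, 1 with medians centred, 0 without scaling, 0 higher and 0 lower without the trend, and 1 to 2 higher and 1 to 4 lower with 1 array left out.

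Without scaling, the brighter treated arrays lifted most probe sets (median 1.13 against untreated, 0.81 against B6) and turned signs. Turned signs are given only for probe sets recomputed here that passed in the main fit or without scaling. Against untreated hearts these were Tgfbi 1415871_at (1.28), Tgfb3 (0.98), Smad7 (1.11 and 1.04), Tgfbr2 1425444_a_at (1.202), Ltbp1 (1.27), Smad3 (1.28), Thbs1 (0.38), Ski (0.78), Usp15 (0.83), Ppm1a (0.89), Pdgfb (0.72), Id3 (0.90) and Cdkn1a (0.95). Against B6 they were Tgfb3 (0.79), Smad7 (0.83 and 0.64), Smad3 (0.84), Bmpr1a (0.52), Acvr1b (0.50) and Ski (0.60, and 0.03 with spike-in scaling), and between untreated apoE-deficient and B6 hearts Eng (-0.094). Dcn in treated against B6 hearts turned to -0.32 with trimmed-mean, -0.0081 with spike-in and -0.33 with median scaling, and the cause was not tested.

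Over all probe sets, 2703 were higher and 2652 lower in treated than untreated hearts, against 3735 and 2038 with medians centred, 5557 and 1422 with spike-in scaling, 22716 and 23 without scaling, and 1058 and 595 without the trend. Against B6 these were 2017 and 2049, against 7032 and 572, 18668 and 55 and 440 and 186 with spike-in scaling, no scaling and no trend. Untreated apoE-deficient against B6 gave 856 and 1053, against 2458 and 581, 73 and 1497 and 6 and 4 under those settings and 600 and 1735 with centred medians. Replicate numbers did not pair the arrays (correlation of deviations -0.0063 to 0.033). With the replicate block 4 in place of 3 probe sets were higher in treated than untreated hearts, the added one being Tgfb2 1450922_a_at (1.22). Signal over background is not given for these arrays, and 2 arrays per group limit the precision.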
